A study of Homo sapiens with 18 samples.

Results

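Transcript levels were compared between JEKO1 cells exposed to IB and JEKO1 cells exposed to DMSO. JEKO1 is an established human cell line of mantle cell lymphoma, a B cell cancer. The comparison took 6 of the 18 libraries of the series, 3 labelled JEKO1-IB-6H and 3 labelled JEKO1-DMSO-6H, and every gene with a mean of at least 10 normalized counts over them. That left 11609 of the 25369 genes listed. IB was read as ibrutinib, given at 0.4 µM for 6 h, because ibrutinib is the drug of that dose in the series description. DMSO is the solvent control, harvested at the same 6 h, and both groups grew in the same serum-containing medium. The 3 libraries of a group carry the letters A, B and C and are called biological triplicates. The sources used here do not say how cultures were kept apart, so p-values measure only the spread between these libraries, which may be technical. Both groups come from a single line, so nothing here samples variation between tumours. In the values below, 3 numbers in a row always stand for replicates A, B and C in that order.

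Ibrutinib binds the kinase BTK covalently and blocks it. In B cells BTK lies downstream of the B cell receptor: after antigen binding, the kinases LYN and SYK activate BTK, BTK activates the phospholipase PLCG2, and its products switch on protein kinase C beta, the ERK cascade and calcium signals. Protein kinase C beta acts through BCL10 and MALT1, which leads to the release of NF-kB dimers from their IkB inhibitors. NF-kB then transcribes survival genes, activation markers and its own inhibitors, among them NFKBIA, so the transcript of an inhibitor also serves as a readout of the pathway. ERK signals induce early response genes such as EGR1 and, in turn, the phosphatases that end them, while active AKT keeps FOXO factors out of the nucleus.

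Recovered depth was 9023575 to 11695852 reads in the DMSO libraries and 8764566 to 12627963 in the IB libraries. Across genes, libraries of 1 group correlated at 0.9925 to 0.9945 (Pearson r on the log2 scale) and libraries of different groups at 0.9729 to 0.9754. DMSO replicate C held 65331 normalized counts of RNA45S5, the ribosomal RNA precursor, against 16416 to 25147 in the other 5 libraries. The B cell label held: all 8 B cell markers were measured in every library, with a summed level of 26464 to 27576 normalized counts with DMSO and 27575 to 28217 with IB. CCND1, the cyclin whose overexpression defines most mantle cell lymphomas, stood at 26991, 27564 and 26474 with DMSO and 30640.1, 29847 and 30427 with IB. Markers of T cells, natural killer cells, monocytes, red cells, epithelium and fibroblasts summed to at most 171 normalized counts per list and library, and CD2, KLRD1, S100A8, HBB, CDH1 and COL1A2 were listed at 0 throughout. LCK, a kinase of T cells that malignant B cells can also transcribe, made up most of the T cell sum and rose from 52.6, 53.6 and 58.2 to 107, 127 and 146. The endothelial list rested on PECAM1, which B cells transcribe too, with KDR and CDH5 listed at 0.

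Both JEKO1 groups carried the transcripts of the same line. Of the genes listed at 0 in all 12 libraries of the second line, MAVER, 19 had a mean of at least 100 in JEKO1, and none of them was under 73.3 normalized counts in any JEKO1 library of either label. This check sets levels from tables that were normalized separately, and it tells the lines apart but not the treatments. BTK is inhibited as a protein, so its transcript is no check of the drug. The leading JEKO1 changes ran opposite to those that the same label gave in MAVER, as described at the end. An exchange of the IB and DMSO labels in JEKO1 and an opposite response of the lines cannot be told apart with these libraries. Each direction below holds for the labels as given.

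Promoters from 5 gene groups are shown with the motif of the factor that each group is named for or known to answer to, chosen among members whose window holds it. They are RefSeq sequences of GRCh38.p14, read along the gene's own strand and taken only from the bases before the annotated start. Motifs were searched on both strands of a window of 250 bases before to 50 bases after the start, which could be matched for 9353 of the 11609 genes tested. The kappaB motif, an NF-kB binding pattern searched with its 2 bases after GGG left free, is in capitals in the first 4, on either strand. The CArG box, bound by serum response factor, is in capitals in EGR1, the FOXO pattern TGTTTAC in TXNIP, the heat shock pattern GAANNTTC in HSPB1 and SERPINH1, and the interferon-stimulated response pattern, a repeat of GAAA with 2 free bases between, in the last 4.
NFKBIA: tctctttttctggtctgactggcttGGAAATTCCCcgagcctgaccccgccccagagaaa
TNFAIP3: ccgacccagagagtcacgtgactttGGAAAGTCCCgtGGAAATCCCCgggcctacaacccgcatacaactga
NFKB1: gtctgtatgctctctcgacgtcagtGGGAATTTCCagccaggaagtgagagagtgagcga
BIRC3: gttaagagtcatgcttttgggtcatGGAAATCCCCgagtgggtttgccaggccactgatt
EGR1: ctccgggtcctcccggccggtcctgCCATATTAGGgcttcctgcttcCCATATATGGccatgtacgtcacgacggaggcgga
TXNIP: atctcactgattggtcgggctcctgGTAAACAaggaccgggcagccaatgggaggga
HSPB1: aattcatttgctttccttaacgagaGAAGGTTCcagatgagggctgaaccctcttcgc
SERPINH1: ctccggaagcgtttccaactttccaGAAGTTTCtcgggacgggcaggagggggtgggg
IFI44L: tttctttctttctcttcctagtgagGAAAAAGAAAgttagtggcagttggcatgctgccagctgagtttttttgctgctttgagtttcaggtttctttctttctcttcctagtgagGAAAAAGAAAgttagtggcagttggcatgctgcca
IFI6: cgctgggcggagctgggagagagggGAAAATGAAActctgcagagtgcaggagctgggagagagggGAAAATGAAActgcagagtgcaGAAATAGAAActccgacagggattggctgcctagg
BST2: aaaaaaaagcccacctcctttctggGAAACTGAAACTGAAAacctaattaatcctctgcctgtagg
ISG20: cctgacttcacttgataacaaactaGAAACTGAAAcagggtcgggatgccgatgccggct

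The NFKBIA stretch is chr14:35404796-35404855, minus strand, with its match 81 bases before the start of the gene that encodes IkB alpha. TNFAIP3 is chr6:137867167-137867238, plus strand, with matches 67 and 55 bases before the start of the A20 gene. NFKB1 is chr4:102501285-102501344, plus strand, and BIRC3 is chr11:102317260-102317319, plus strand. EGR1 is chr5:138465349-138465430, plus strand, where CArG boxes begin 105 and 83 bases before the start. TXNIP is chr1:145996672-145996728, minus strand, HSPB1 is chr7:76302466-76302523, plus strand, and SERPINH1 is chr11:75562157-75562214, plus strand. IFI44L is chr1:78620259-78620409, plus strand, IFI6 is chr1:27672251-27672373, minus strand, BST2 is chr19:17405720-17405785, minus strand, and ISG20 is chr15:88638922-88638981, plus strand. In the whole windows, the kappaB pattern was in 5 of 26 matched NF-kB targets (19.2%), against 2.16% of all matched genes tested and 1.92% of all 27305 promoters in the table. The interferon pattern was in 11 of 19 matched interferon-stimulated genes (57.9%), against 2.79% and 3.65%. CArG boxes were in 2 of 19 matched early response genes (10.5%), against 1.12% and 1.29%, and the FOXO pattern in 4 of 21 matched FOXO factors and targets (19.0%), against 2.14% and 3.41%. The heat shock pattern was in 7 of 28 matched chaperone genes (25%), against 4.48% and 6.87%. The members of these lists are known targets, so the shares describe the lists and not the treatment. Matches of 2 of these motifs overlapped in 2 promoters for kappaB with the CArG box, and in 2 for kappaB with the interferon pattern.

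With IB, 2538 of the 11609 genes rose (21.9%) and 2341 fell (20.2%), so 42% were called at a Benjamini-Hochberg adjusted p under 0.05 in limma, a linear model on log2(normalized count + 1). Fold changes below are on that scale, IB minus DMSO, and understate the change of genes with few reads. The minimum is a mean over both groups, so a gene scarce in 1 group was tested only where the other was high. Lists with such genes therefore count changed members more readily than unchanged ones. Most changes were small: the median size among called genes was 0.36 on the log2 scale, and 344 genes rose and 192 fell at least 2-fold (4.62% of those tested). At least 4-fold, 55 rose and 28 fell. The called share grew with level, from 28.2% of genes with a mean under 100 to 72.5% of the 69 genes with the highest means, none of which was called at 2-fold. The libraries of the groups did not overlap for 50.2% of genes, 25.4% with IB higher and 24.8% with IB lower.

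**Figure D1:**
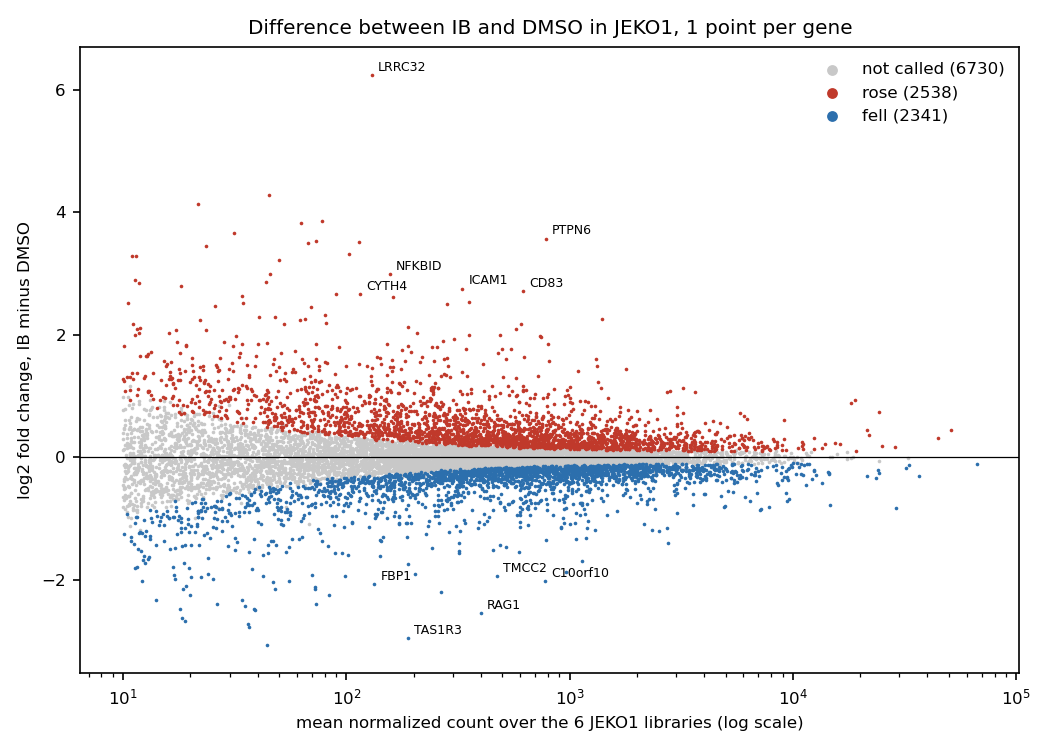
Log2 fold change (IB minus DMSO) against the mean normalized count over the 6 JEKO1 libraries (log axis), 1 point per gene tested, coloured by call, with some of the leading genes named. The cloud is close to even about 0, with 2538 genes that rose and 2341 that fell, and LRRC32 stands highest at 6.24.

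The 12 leading rises were taken by size from the called genes that averaged 50 normalized counts or more and whose groups did not overlap, so their order describes them and is no test. LRRC32, a receptor that holds latent TGF-beta on the cell surface, had 4.31, 1.12 and 1.91 normalized counts with DMSO and 389.9, 226 and 158 with IB. The 3 IB libraries of LRRC32 spread by more than 2-fold among themselves, and each was far above every DMSO library. Its log2 fold change was 6.24 ± 0.33 (SE, n = 3 per group; limma adjusted p = 7.79e-12). SIRPA, the receptor for CD47, went from 4.31, 13.4 and 12.4 to 139.8, 143 and 154. WNT10A, a secreted Wnt ligand, went from 7.76, 8.94 and 5.72 to 129, 112 and 111. In SEMA7A, a membrane-anchored semaphorin, the 3 DMSO libraries gave 12.1, 11.2 and 7.63 and the 3 IB libraries 121, 120.4 and 132. All 4 were scarce with DMSO and well measured with IB.

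PTPN6, which encodes the inhibitory phosphatase SHP-1, had 122, 131 and 108 normalized counts with DMSO and 1510.4, 1392 and 1417 with IB, the highest level of the leading rises (log2 fold change 3.57 ± 0.08, limma adjusted p = 2.21e-17). CYTH4, an exchange factor for ARF GTPases, stood at 40.5, 32.4 and 21 with DMSO and at 215, 190.3 and 188 with IB. GLYATL2, an acyltransferase gene, had 8.62, 10.1 and 14.3 and then 124, 139 and 144. The other leading rises belong to NF-kB and ERK signalling and follow with their groups. By the selection, no library of 1 group reached the range of the other in any of these genes.

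The leading falls held no single pathway by name. RAG1, the recombinase subunit that cuts antigen receptor genes in B cell precursors and a FOXO1 target, went from 687, 656 and 704 normalized counts with DMSO to 109, 112 and 127 with IB (log2 fold change -2.55 ± 0.09, limma adjusted p = 9.02e-15). TAS1R3, a subunit of taste receptors, had the largest fall, from 317, 388 and 301 to 51.6, 43.6 and 33.5 (log2 fold change -2.95 ± 0.15). C10orf10, a FOXO-responsive gene also called DEPP1, was the most abundant, at 1277, 1248 and 1215 with DMSO and 301, 300.4 and 320.2 with IB. Replicates of RAG1 and C10orf10 lay close together within each group, and those of TAS1R3 spread more. TMCC2, which encodes a transmembrane coiled-coil protein, fell from 755, 768 and 732 to 219, 179 and 189. FBP1, the gluconeogenic fructose bisphosphatase, fell from 231, 191 and 227 to 51.6, 43.6 and 56.5. The others were SFTPB, CPLX1, GLB1L2, DUSP26, HRH3 and CDKL1, whose log2 fold changes ran from -2.40 to -1.93. In GLB1L2 and DUSP26 the IB libraries spread by 2-fold or more, at 42.9, 22.9 and 16.7 and 23, 19.5 and 39.8. All leading falls lie under every DMSO library by the selection.

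**Figure D2:**
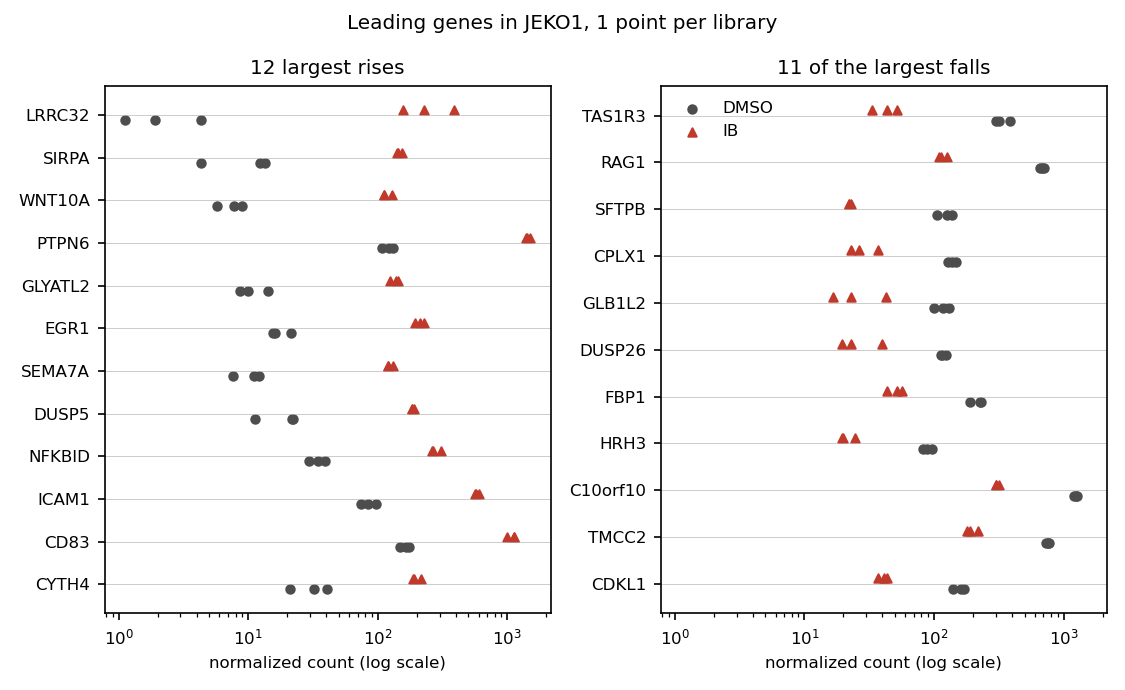
Normalized counts (log axis) of the 12 leading rises (left) and 11 leading falls (right), 1 point per library, grey circles for DMSO and red triangles for IB. In every gene the 3 IB libraries lie apart from the 3 DMSO libraries, as the selection required. PTPN6 reaches 1510.4 with IB, the highest value of the rises.

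Genes of the B cell receptor and its co-receptors moved both ways. Of 17 tested, 8 rose and 6 fell, where 21.9% and 20.2% of all genes did. These shares over all genes are the background for every list below. The signalling chain CD79B fell from 8116, 8309 and 7457 normalized counts to 5158, 4796 and 4567, while its partner CD79A did not pass the test at 4835, 4703 and 4615 with DMSO and 4638, 4746 and 4878 with IB (difference -0.07 to 0.09 on the log2 scale, 95% interval). CD81, a tetraspanin of the co-receptor complex, fell by 0.44 on the log2 scale. MS4A1, which encodes CD20, rose from 4734, 4702 and 5273 to 7161, 7626 and 7808. Several inhibitory receptors rose. CD72 rose from 334, 285 and 295 to 1189, 1176 and 1187, and the log2 fold changes of CD22, FCGR2B, SIGLEC10 and CD5 were 0.50, 0.60, 0.56 and 1.47. PECAM1, also inhibitory, went the other way, from 258, 269 and 232 to 115, 115 and 128. Among the FCRL receptors, FCRL5 rose by 1.05, and FCRL1 and FCRL2 fell by 0.73 and 0.43 on the log2 scale.

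Of 25 kinases and adaptors near the receptor, 12 rose and 6 fell. BTK, the drug's target, had 2273, 2311 and 2260.1 normalized counts with DMSO and 2842, 2883 and 2724 with IB, without overlap. The kinases upstream of BTK moved little: LYN rose by 0.12 and SYK fell by 0.11 on the log2 scale. The adaptor BLNK did not pass the test (difference -0.10 to 0.11, 95% interval). PLCG2, the substrate of BTK, rose from 3289, 3196 and 3259.9 to 4422, 4303 and 4239. The step below it split. PRKCB, protein kinase C beta, fell from 5793, 5945 and 5607 to 3855, 3639 and 3730.2. MALT1 rose by 0.51, and BCL10 did not pass the test at 189, 183 and 234 and 183, 209 and 211. RASGRP1, which activates RAS, rose from 43.1, 36.9 and 42.9 to 137, 161 and 137, and the GTPase RAC2 from 194, 215 and 223 to 618, 594 and 602. The exchange factors VAV1 and VAV2 rose by 0.74 and 0.70, and the scaffold BANK1 fell by 0.75.

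Phosphatases of antigen receptor signalling were higher in 11 of 14 and lower in 1. Besides PTPN6, PTPRCAP, which binds the phosphatase CD45, rose from 408, 428 and 407 to 850.5, 701 and 777, and PTPN22 from 80.2, 81.6 and 84.9 to 154, 163 and 155. The inositol phosphatases parted: INPPL1 (SHIP2) rose from 1299.8, 1242 and 1214 to 2132, 1864 and 1809, and INPP5D (SHIP1) fell from 3901, 3830.2 and 3731 to 2944, 2849 and 2878. The median of the list was 0.32 on the log2 scale, against -0.01 over all genes tested.

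NF-kB genes were among the groups that rose most. Of the 5 subunit genes, 4 rose. NFKB2, the p100 and p52 subunit, had 203, 247 and 203 normalized counts with DMSO and 987, 900.1 and 911 with IB. RELB, its partner in the noncanonical pathway, rose from 291, 301 and 321 to 1016, 955 and 878, and NFKB1 from 642, 693 and 688 to 1337, 1303 and 1334. REL rose less, from 816, 816 and 877 to 1128, 1051 and 1166. RELA was the exception: its libraries overlapped, at 1359, 1402 and 1335 and 1342, 1322 and 1378 (difference -0.12 to 0.08 on the log2 scale, 95% interval).

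All 6 measured IkB genes rose. NFKBIA had 266, 240.3 and 264 normalized counts with DMSO and 755, 793 and 790.0 with IB. NFKBIE rose from 354, 351 and 334 to 1313, 1238 and 1194, and NFKBIB, by less, from 286, 293 and 293 to 468, 479 and 475. The atypical members of the nucleus ranged more widely: NFKBID went from 34.5, 39.1 and 29.6 to 307, 263 and 268 and BCL3 from 104, 118 and 120.2 to 402, 389.9 and 498, while NFKBIZ rose by 0.61 on the log2 scale. Of 16 NF-kB regulators, 10 rose and 1 fell. TNFAIP3, the ubiquitin-editing inhibitor A20, rose from 75.9, 86.1 and 81.1 to 349, 321 and 329.6, and its partner TNIP1 from 1013, 1001 and 973 to 1633, 1585 and 1596. TRAF1 rose from 31, 49.2 and 42 to 122, 129.6 and 109. The kinase complex itself did not pass the test: CHUK, IKBKB and IKBKG had log2 fold changes of 0.07, -0.03 and 0.11. MAP3K14 (NIK) rose by 0.48, and the ubiquitin ligases BIRC3 and BIRC2 moved apart, by 0.38 and -0.36.

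**Figure D3:**
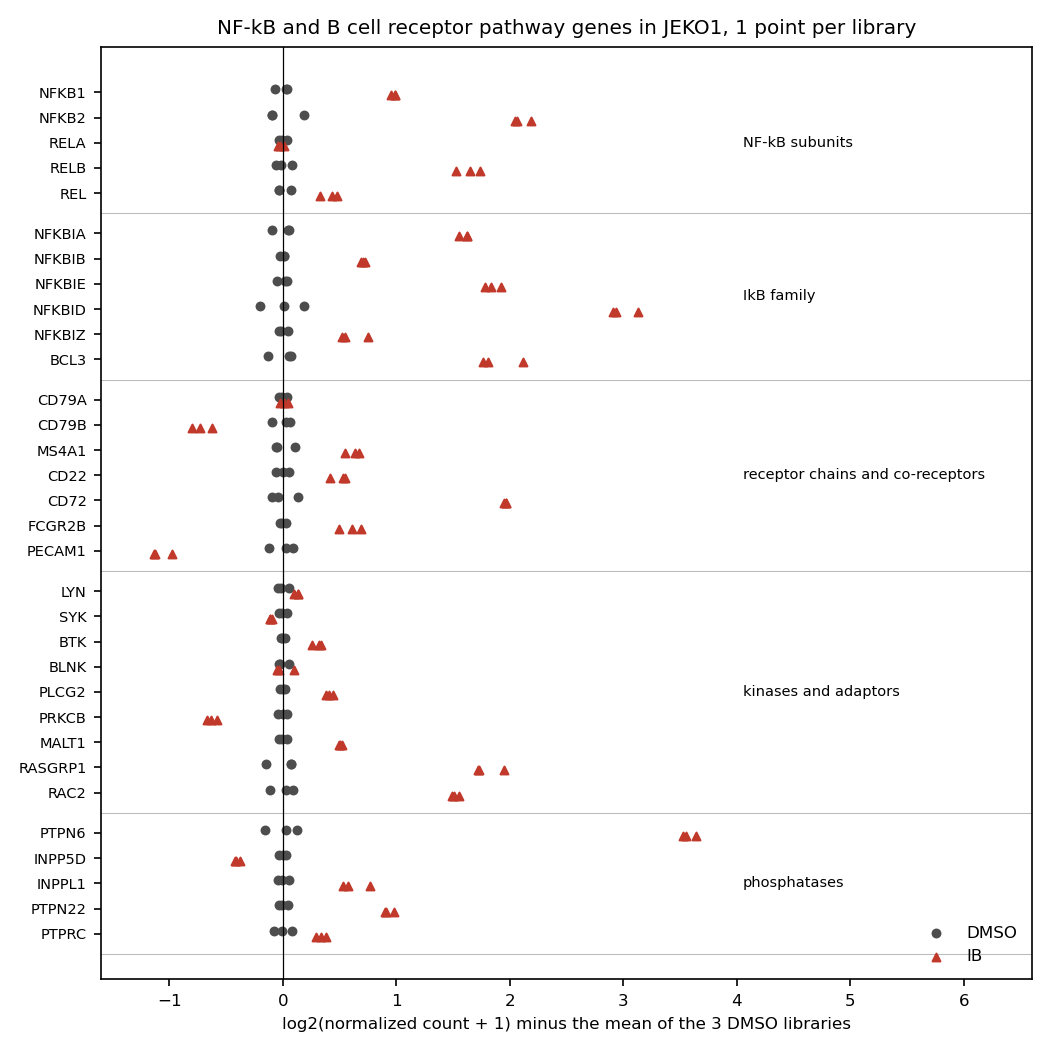
Log2(normalized count + 1) minus the mean of the 3 DMSO libraries for genes of the NF-kB and B cell receptor pathways, 1 point per library, grey circles for DMSO and red triangles for IB. All 6 IkB genes lie to the right of 0 with IB, RELA, CD79A and BLNK overlap with DMSO, and CD79B, PRKCB and PECAM1 lie to the left.

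NF-kB targets, a list that shares members with the IkB and subunit genes, rose in 28 of 31 tested and fell in 2. Their median was 1.56. The list holds 40 genes, and those under the minimum are not in the count. CD83, a marker of activated B cells, had 165, 149.8 and 175 normalized counts with DMSO and 1127, 1119 and 989 with IB, ICAM1 had 96.6, 83.8 and 74.4 and 569, 599.7 and 562, and CD86 had 111, 135 and 128 and 464, 491 and 487. CD40 rose from 128, 162 and 119 to 438, 423 and 379. BCL2A1, an anti-apoptotic target, was close to absent with DMSO, at 1.72, 0 and 3.82, and stood at 38.1, 53.9 and 32.4 with IB. It reached the minimum mean only through its IB libraries. The kinase MAP3K8 rose from 13.8, 6.71 and 6.68 to 66.7, 61.9 and 48.1, and it too reached the minimum mean only through its IB libraries. The falling members were PIM1, by 0.38, and CD74, by 0.18, and CCL4 did not pass the test at 12.1, 10.1 and 18.1 and 14.3, 8.03 and 20.9.

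Activation markers on the B cell surface rose in 12 of 19 and fell in 5. CD69, an early marker, rose from 33.6, 31.3 and 28.6 to 123, 102 and 120.3, and CD82 from 21.6, 13.4 and 12.4 to 86.6, 78 and 74.3. CD27, a memory marker and the receptor for CD70, fell from 1717, 1764 and 1740.2 to 561, 468 and 579, while its ligand CD70 rose from 351, 363 and 287 to 835, 757 and 853. CD38 fell by 0.73 and CD44 by 0.21 on the log2 scale. Of 11 chemokines and cytokines, 6 rose and 2 fell. CCL22, a chemokine for T cells, rose from 5.17, 3.35 and 2.86 to 60.4, 65.4 and 51.3. Only its IB libraries brought CCL22 to the minimum mean. TNFSF9, the ligand of CD137, rose from 87.1, 73.8 and 81.1 to 291, 265 and 265, and VEGFA from 134, 118 and 145 to 345, 298 and 368. TNFSF8, the CD30 ligand, fell from 216, 225 and 265 to 107, 109 and 115. Many of this list lay under the minimum: CCL3 had 1.72, 1.12 and 4.77 and 9.53, 6.88 and 17.8, and IL10 had 0.862, 0 and 0 and 5.56, 11.5 and 10.5. With the minimum lowered to a mean of 1, 10 members rose in place of 6.

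Early response genes rose in 18 of 25 and fell in 4. EGR1 had 15.5, 21.2 and 16.2 normalized counts with DMSO and 195, 227 and 211 with IB. EGR2 went from 9.49, 1.12 and 2.86 to 81, 78 and 98.4, and reached the minimum mean only through its IB libraries. The nuclear receptor gene NR4A3 went from 28.5, 21.2 and 28.6 to 164, 116 and 125. NR4A1 rose from 80.2, 90.5 and 76.3 to 267, 300.4 and 315, while NR4A2 did not pass the test. NAB2, a co-repressor of the EGR factors, rose from 709.8, 655 and 634 to 1194, 1261 and 1213. The 4 that fell were MYC, TAGAP, BTG1 and BTG2, by 0.67, 0.79, 0.28 and 0.25 on the log2 scale. Of 7 AP-1 factors tested, out of 14 listed, 6 rose and 0 fell. JUNB went from 211, 215 and 239 to 729, 679 and 778, BATF from 66.4, 90.5 and 71.6 to 175, 180.0 and 189, and JUN, at low levels, from 20.7, 11.2 and 11.4 to 61.9, 39 and 59.6. AP-1 members under the minimum are not in the count. Among them, FOS had 4.31, 1.12 and 2.86 and 7.94, 11.5 and 7.32. FOSB had 3.45, 11.2 and 0.954 and 3.97, 2.29 and 11.5, and MAF was listed at 0 throughout.

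ERK feedback genes rose in 7 of the 8 tested, out of 15 listed, and fell in 0. DUSP5, the nuclear ERK phosphatase, had 11.2, 22.4 and 21.9 and 191, 183 and 185, and DUSP2, another nuclear phosphatase, 279, 327 and 259 and 816, 741 and 611. SPRED2 rose from 5.17, 7.82 and 8.59 to 44.5, 50.5 and 37.7, and reached the minimum mean only through its IB libraries. DUSP10, SPRY1, SPRY2 and SPRED1 rose by 1.07 to 1.88 on the log2 scale, and DUSP1 did not pass the test at 0.34. Several of these genes are scarce, and with a minimum mean of 50 the count of members that rose was 2. Listed members under the minimum, DUSP6 and SPRY4 among them, are not in the count, so it is no test of the list.

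FOXO factors and targets went mostly down, with 14 of 23 lower and 2 higher and a median of -0.31. FOXO1 itself fell from 1207, 1175 and 1203 to 1034, 994 and 913. After RAG1, the stress gene GADD45A fell most, from 474, 458 and 496 to 166, 148 and 165, followed by TP53INP1, from 314, 304 and 348 to 144, 134 and 127. TXNIP, which restrains glucose uptake, fell from 928, 884 and 946 to 629, 547 and 501, and CCNG2 from 655, 624 and 721 to 429.6, 361 and 390.3. The cell cycle inhibitor CDKN1B fell by 0.21. KLF2 and IL7R, also FOXO targets, rose by 0.38 and 1.57. In the MYC network, 5 of 10 fell and 0 rose: MYC went from 11811, 11615 and 11836 normalized counts to 7212, 7122 and 7774, its partner MAX from 1308, 1256 and 1296 to 1039.5, 1019 and 1121, and MXD4, MGA and MLXIP fell by 0.70, 0.38 and 0.40.

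Receptors for homing and egress fell in 7 of 13 and rose in 2. CXCR4, the receptor that keeps B cells in marrow and lymph node, had 11637, 11538 and 11784 normalized counts with DMSO and 7153, 7244 and 7014 with IB (log2 fold change -0.71 ± 0.04). S1PR4 fell from 879, 1038 and 725 to 491, 488 and 382 and the integrin subunit ITGB1 from 2085, 2025 and 2166 to 1266, 1356 and 1468. S1PR1, GPR183 and ITGA4 fell by 0.37, 0.32 and 0.28. The follicle receptor CXCR5 rose from 117, 117 and 132 to 291, 279 and 299, and CCR7 rose by 0.35. Cytokine receptors rose in 11 of 20 and fell in 2. IL2RG, the chain shared by several interleukin receptors, rose from 478, 463 and 454 to 924, 875 and 945, and its partner IL21R from 22.4, 24.6 and 10.5 to 106, 78 and 73.2. IL10RA rose from 252, 253 and 225 to 496, 447 and 428 and IL27RA from 148, 149 and 161 to 332, 353 and 331, while IL2RA and TNFRSF17 fell by 0.47 and 0.32.

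B cell transcription factors divided, with 13 of 28 higher and 9 lower. SPIB rose from 2470.1, 2423 and 2185 normalized counts to 5212, 4928 and 4636, IRF4 from 1657, 1701 and 1724 to 2933, 2836 and 2908, and IKZF1 from 4655, 4625 and 4749 to 7342, 7392 and 7578. BACH2, which restrains plasma cell fate, fell from 3896, 4046 and 3968 to 2121, 2072 and 2124. The coactivator POU2AF1 fell from 6323, 6261 and 6186 to 3666, 3548 and 3447 and ETS1 from 9037, 8894 and 9907 to 5207, 5114 and 5195. PAX5, the factor of B cell identity, rose by 0.40, and SOX11, an oncogenic factor of mantle cell lymphoma, fell by 0.25. Among 14 genes of plasma cells and immunoglobulin secretion, 3 rose and 7 fell. PRDM1, the plasma cell regulator, rose from 19, 20.1 and 31.5 to 47.6, 53.9 and 51.3, and XBP1 did not pass the test.

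MHC genes changed little. In class II, 1 of 11 rose and 4 fell, among them HLA-DPB1 from 2389, 2384 and 2083 to 1738, 1809 and 1781, and the regulator CIITA did not pass the test (-0.18 to 0.06 on the log2 scale, 95% interval). In class I, 2 of 10 rose and 4 fell, and 2 fell without DMSO replicate C, without IB replicate B or without the variance trend of the test. NLRC5, the class I regulator, fell from 1298, 1176 and 1053 to 949.8, 889 and 815, and the chaperone CALR rose by 0.27. Of 20 genes checked from the MHC region of the genome, 17 stayed at or under 12.3 normalized counts in every library, and 12 were listed at 0 in all 6, TAP1, PSMB8, TNF and LTB among them. Since EIF4A1 and H3F3A, which every cell uses, were also listed at 0, these entries are not read as absence.

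Interferon-stimulated genes rose in 16 of 26 and fell in 5, with a median of 0.64. IFI44L went from 6.9, 10.1 and 4.77 to 42.9, 39 and 29.3 and IFI6 from 7.76, 13.4 and 3.82 to 27.8, 26.4 and 18.8. Both reached the minimum mean only through their IB libraries. MX1, an antiviral GTPase, had 136, 114 and 121 with DMSO and 359.7, 382 and 369 with IB, and BST2, which tethers virus particles, had 162, 124 and 163 and 398, 430.0 and 427. The transcription factor IRF7 rose from 156, 127 and 133 to 285, 263 and 226 and the RNA sensor IFIH1 from 81.9, 84.9 and 109 to 175, 179 and 178. ISG20, with 1 match of the interferon pattern, fell from 323, 373 and 308 to 182, 191 and 169.5, and OAS1 from 273, 266 and 215 to 156, 167 and 167. STAT2 and DDX58 fell by 0.34 and 0.41 on the log2 scale. With a minimum mean of 50, 9 members rose in place of 16.

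The BCL2 family rose in 10 of 14 and fell in 3, and the 3 that fell, BMF, BBC3 and HRK, are all pro-apoptotic. The protective genes BCL2 and MCL1 rose by 0.20 and 0.17, and BCL2L1 (BCL-XL) by 0.42. Pro-apoptotic BID rose from 436, 466 and 442 to 803, 857 and 819 and BIK from 13.8, 14.5 and 17.2 to 61.9, 48.2 and 45. HRK fell from 122, 99.5 and 112 to 35.7, 31 and 20.9, and BBC3 (PUMA) from 68.1, 76 and 64.9 to 39.7, 40.1 and 31.4. Targets of p53 rose in 8 of 21 and fell in 7: CDKN1A (p21) rose from 60.4, 57 and 49.6 to 131, 117 and 125 and PLK3 from 25.9, 24.6 and 19.1 to 59.6, 82.6 and 93.1, while MDM2 and RRM2B fell by 0.44 and 0.74.

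Replication genes and mitotic genes moved in opposite directions by small amounts. Of 40 replication and G1/S genes, 25 rose and 2 fell, with a median of 0.21, and 0 fell without IB replicate A or without the variance trend. UHRF1 rose from 2068, 2077 and 1917 normalized counts to 2754, 2674 and 2727, CDC45 from 1412, 1390.4 and 1295 to 1839, 1758 and 1823, and TYMS from 2870.3, 2740.5 and 2937 to 3893, 3665 and 3807. Of 40 mitotic genes, 25 fell and 3 rose, with a median of -0.19. CDC25B fell from 3967, 3980.0 and 3785 to 2894, 2873 and 2995 and ASPM from 2231, 2259.9 and 2402 to 1633, 1833 and 1781, while MYBL2, FOXM1 and PTTG1 rose by 0.25, 0.23 and 0.15. Among cyclins, CDKs and their inhibitors 11 of 18 rose and 5 fell, and 3 fell without DMSO replicate B, without IB replicate A, without the variance trend or with DESeq2. CCNE2 rose from 36.2, 45.8 and 34.3 to 88.1, 102 and 106 and CDK2 from 1042, 1081 and 1013 to 1615, 1471 and 1442, and the mitotic CCNB1 and CDK1 fell by 0.21 and 0.18. Histone genes, many of which lack poly(A) tails and have near-identical copies, passed the test in 4 of 20, 1 higher and 3 lower. Without IB replicate C 3 histone genes were higher, and with edgeR 5 were lower.

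Ribosomal protein genes fell in 48 of 57 and rose in 0, with a median of -0.26. They made up 4.00% to 4.10% of normalized counts in the DMSO libraries and 3.34% to 3.43% in the IB libraries. RPL22 fell from 2108, 2169 and 2114 to 1375, 1448 and 1448 and RPL31 from 6374, 6585 and 6329 to 4953, 5098 and 5187. Without DMSO replicate C, the library rich in RNA45S5, 49 fell, and without the variance trend of the test 29 fell. Translation factors fell in 15 of 25 and rose in 0: EEF1G went from 9879, 10061 and 9133 to 7982, 7944 and 8279, and TPT1 from 25122, 25819 and 27697 to 19895, 20751 and 21590.0. Of 37 nucleolar genes, 15 fell and 0 rose, with DKC1, POLR1A and UBTF lower by 0.29, 0.29 and 0.23.

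Chaperone, chaperonin and proteasome genes were mostly higher, where 21.9% of all genes rose and 20.2% fell. Of 30 chaperone genes, mainly of the HSP70, HSP90 and HSP40 systems but with others such as HSPB1 and SERPINH1, 20 rose and 2 fell. HSP90AA1, the inducible HSP90, had 17566, 18105 and 19158 normalized counts with DMSO and 29006, 31194 and 30852 with IB. HSPB1 rose from 524, 532 and 545 to 1117, 1088 and 1297, HSPH1 from 4293, 4170.0 and 4629 to 6705, 7339 and 7609.9, and the co-chaperone BAG3 by 0.70. The collagen chaperone SERPINH1 rose from 139, 133 and 109 to 231, 225 and 231. HSPA4 and DNAJB4 fell by 0.23 and 0.41, and the regulator HSF1 did not pass the test. The CCT chaperonin rose in 7 of 8 subunits, CCT3 from 10893, 11038 and 11116 to 13610.3, 13843 and 13752. Proteasome subunits rose in 26 of 32 and fell in 0, PSMD1 from 2907, 2907 and 2973 to 3574, 3903 and 3834 and PSMA7 from 2449, 2573 and 2297 to 3362, 3152 and 3126. Endoplasmic reticulum stress genes were less one-sided: of 27, 10 rose and 5 fell, EDEM1 by 0.41, and the median was 0.08. HERPUD1 rose from 1488, 1492 and 1481 to 2469.7, 2542 and 2484, and the central chaperone HSPA5 did not pass the test (-0.03 to 0.15 on the log2 scale, 95% interval).

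Metabolic lists were mixed. Over all genes tested 21.9% rose and 20.2% fell, and lists near those shares are not read as changed. Glycolysis genes rose in 11 of 24 and fell in 5. The lactate exporter SLC16A3 rose from 78.5, 90.5 and 74.4 to 326, 196 and 180.0 and HK1 from 818, 919 and 866 to 1260.3, 1218 and 1303, while ALDOC fell from 689, 693 and 642 to 283, 211 and 217. SLC16A3, PFKFB4 and DDIT4 were higher in IB replicate A than in the other IB libraries, with PFKFB4 at 139.8, 86 and 65.9 and DDIT4 at 1124, 834 and 608. These 3 were singled out after their values were seen. Amino acid stress genes were higher in 6 of 23 and lower in 6, near the shares of all genes, with a median of -0.05. SLC7A11, the cystine transporter, rose from 56.9, 71.5 and 68.7 to 126, 149 and 149. CHAC1, which degrades glutathione, fell from 80.2, 76 and 65.8 to 43.7, 39 and 31.4. Cholesterol and fatty acid synthesis genes rose in 9 of 25 and fell in 4, with FDFT1 higher by 0.42, and 5 rose without the variance trend. Of 19 aminoacyl-tRNA synthetases, 3 rose and 5 fell, but 3 fell without DMSO replicate A or B and 2 without the variance trend. Nuclear transport genes were higher in 4 of 28 and lower in 5, with all log2 fold changes between -0.21 and 0.15. In this list 3 fell without DMSO replicate B, without IB replicate C or without the variance trend, and 0 rose without DMSO replicate B or without the trend. XPO1, the exporter that the series also targets, had 6670.4, 6777 and 7337 and 7338, 7662 and 7637, a rise of 0.12 whose call was lost when DMSO replicate A or B was left out (limma adjusted p = 0.127 and 0.0942) and when IB replicate B or C was (limma adjusted p = 0.0919 and 0.0518). Of 20 pause and splicing genes, 8 fell (4 without the variance trend) and 3 rose, and MALAT1, a nuclear RNA, went from 869, 715 and 886 to 509.8, 555 and 573.

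**Figure D4:**
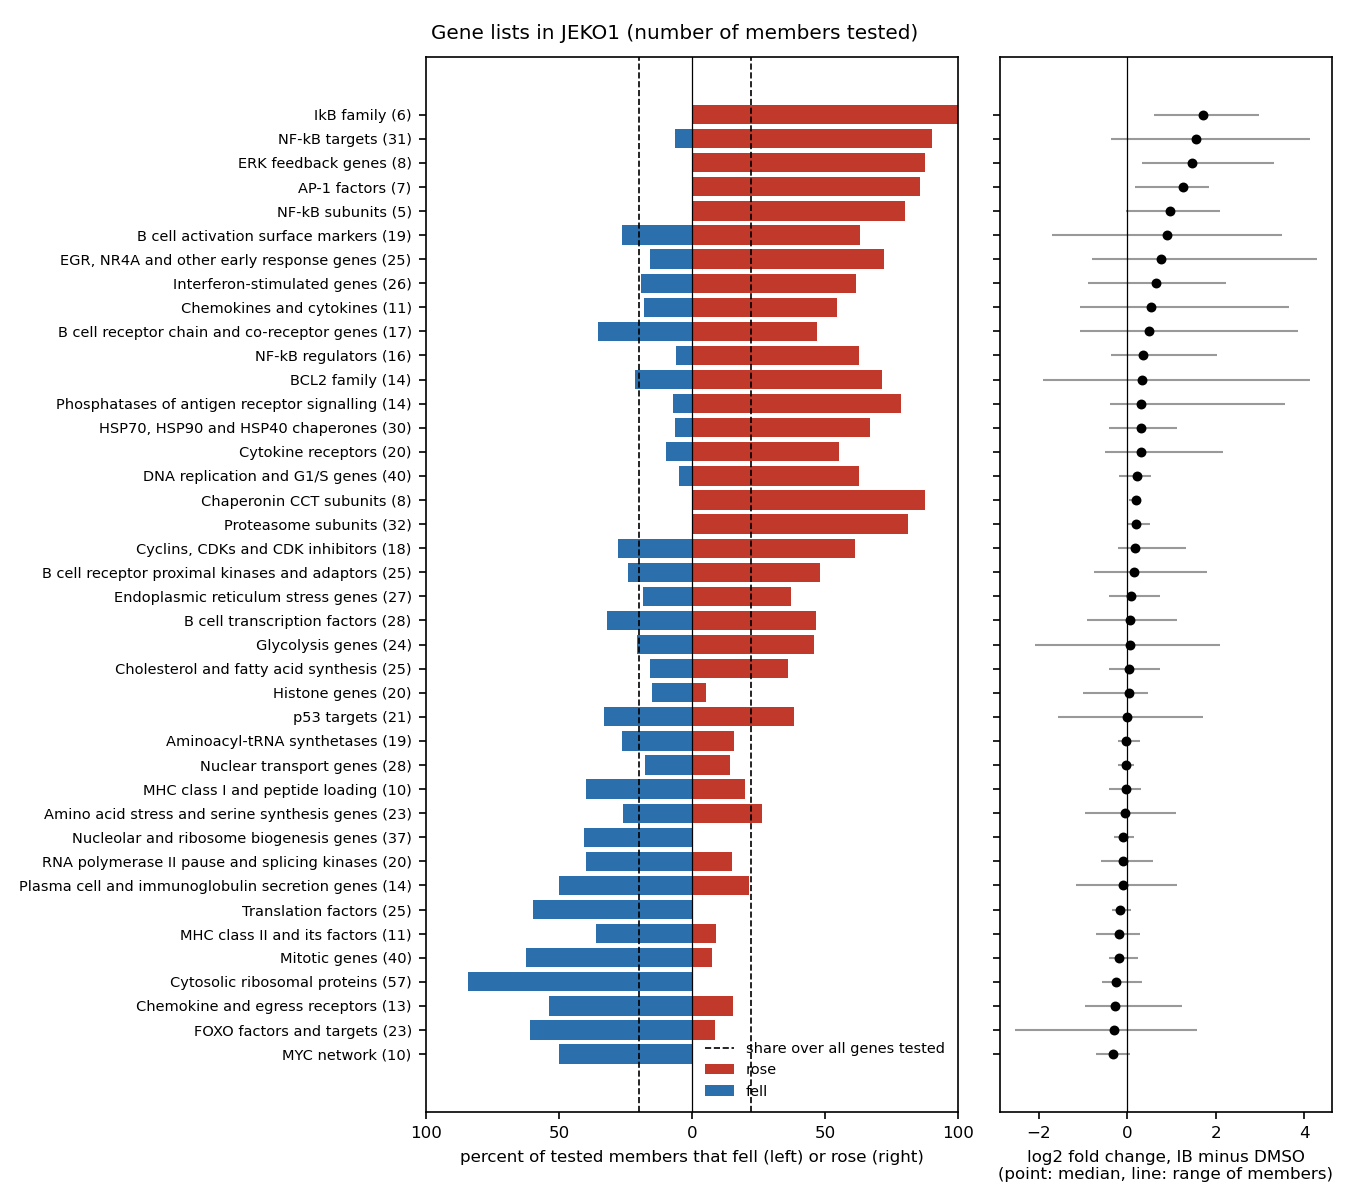
Left, the percent of tested members of each of 40 gene lists that rose (right of 0) or fell (left of 0) with IB, with dashed lines at the shares over all genes tested (21.9% and 20.2%); right, the median and range of the members' log2 fold changes. IkB genes and NF-kB targets are at the top, with medians of 1.72 and 1.56, and the MYC network, at -0.33, is at the bottom.

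MAVER, a second mantle cell lymphoma line, received IB and DMSO in the same way for 6 h, with 3 libraries each. Fitted together, the 12 libraries gave 19% of 10632 genes called for IB in MAVER, and 41.3% called for the difference of the JEKO1 effect from the MAVER effect, 21.7% higher and 19.6% lower in JEKO1. Of the 24 leading JEKO1 genes, 16 were tested in both lines, and 15 of them were called in the opposite direction in MAVER. EGR1, which rose in JEKO1, had 43.3, 25.7 and 30.5 normalized counts in MAVER with DMSO and 0.963, 0 and 0 with IB. RAG1, which fell in JEKO1, had 20.3, 23.8 and 14.9 with DMSO and 134, 152 and 149 with IB. PTPN6 had 348, 384 and 401 and 179, 215 and 178, and C10orf10 had 274, 277 and 278 and 758, 752 and 761. The exception was ICAM1, at 225, 196 and 219.7 with DMSO and 262, 235 and 249.6 with IB in MAVER (log2 fold change 0.22, limma adjusted p = 0.124). NFKBIA did not pass the test in MAVER, where its libraries overlapped, at 844, 889 and 886 and 847, 873 and 806.

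Of all genes tested in both lines, 11.5% were called in opposite directions and 1.43% in the same direction. The chaperones were called in opposite directions in 14 of 30 genes tested in both lines and early response genes in 14 of 23. For the 27 NF-kB targets tested in both lines the counts were 6 opposite and 7 alike, and by the test of the difference 21 had the higher effect in JEKO1 and 2 the lower. The median log2 fold change of NF-kB targets in MAVER was -0.07, that of FOXO factors and targets 0.20 and that of chaperones -0.19. With the JEKO1 labels exchanged, the difference between lines was called in 1042 genes as higher and 1379 as lower, in place of 2309 and 2081.

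**Figure D5:**
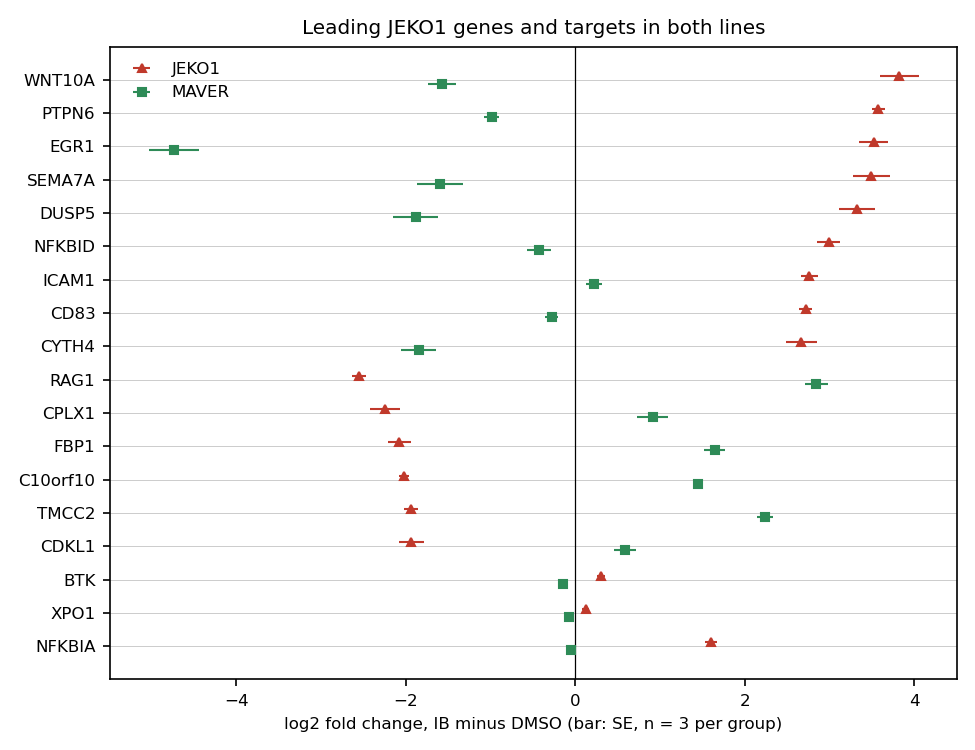
Log2 fold change (IB minus DMSO) with its SE, n = 3 libraries per group, in JEKO1 (red triangles) and MAVER (green squares), for leading JEKO1 genes tested in both lines and for BTK, XPO1 and NFKBIA. Among the leading genes plotted the points of the lines lie on opposite sides of 0, EGR1 at 3.52 and -4.74, except that ICAM1 is above 0 in both.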

How the data were processed

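RNA of 6 JEKO1 libraries was sequenced, with 3 replicates of each of DMSO and IB. Per the labels' protocols, stranded TruSeq libraries were read single-end at 50 bp, aligned with STAR, quantified with Cufflinks and tested with DESeq2. FastQC and the build hg19 are named in the submitters' processing notes. Versions, the counter, its strand setting and the annotation were not given in the sources used here. The deposited values are normalized counts, a signal per gene scaled by the authors with 1 factor per library. Each was a whole multiple of its library's smallest value (100% within 0.01 read), so reads were recovered, 8764566 to 12627963 per library.

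Genes averaging 10 or more were fitted with limma 3.58.1 in R 4.3.3 (eBayes with trend, Benjamini-Hochberg adjustment) on log2(value + 1) over the 6 libraries. The difference from MAVER used 12 libraries, each effect within its own table. Alternatives were other pseudocounts, minima and scalings, no trend, the replicate letter as a block, leaving out each library, and edgeR 4.0.16 and DESeq2 1.42.0 on the reads. No pair of replicates agreed within sampling noise (chi-square per degree of freedom 1.39 to 4.78). Data simulated for this comparison held 11533 genes, with 50 changed at each of 1.25-, 1.5-, 2- and 4-fold, all averaging 50 or more. Limma called 35 (70%) at 1.25-fold, 45 (90%) at 1.5-fold and all 50 at 2-fold and at 4-fold. It also called 17 unchanged genes. Far fewer genes were changed there than were called in the data, so the 17 give no false share for the data. Genes averaging under 50 are not covered.

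The members and the 40 gene lists were chosen with earlier results of these data known. Leading genes are the 12 largest rises and the 12 largest falls, taken from called genes that averaged 50 or more and whose groups did not overlap. Each list names its 3 called members with the smallest p, plus BTK, XPO1 and NFKBIA, and other members were picked after their values were seen. Of 902 distinct list genes found in the data, 110 lay under the minimum, 38 of them at 0 throughout. Genes with near-identical copies (HLA, HSPA1B, histones, ribosomal proteins) and antisense or overlapping genes are uncertain. 28 altered gene names in the table, 18 of them tested, are not named. Some genes that these rules name, 1 of the leading falls among them, are not reported here. Promoter sequences are from RefSeq, and coordinates of the authors' build are not printed.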

Additional observations from a re-analysis of the deposited data

Results flagged for a closer look

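The effect of IB differed between the lines for 2309 genes with the JEKO1 effect higher (21.7% of 10632 tested in both) and 2081 with it lower (19.6%), by the test of the difference itself in limma. Differences below are JEKO1 minus MAVER on the log2 scale. The largest positive differences among the leading genes were those of EGR1, at 8.26, and of the Wnt ligand gene WNT10A, at 5.40. EGR1 had 0.963, 0 and 0 normalized counts in MAVER with IB, so the size of its difference depends on the 1 added to each value. The ERK phosphatase gene DUSP5 differed by 5.21, SEMA7A by 5.09, PTPN6 by 4.56 and CYTH4 by 4.51. NFKBID, CD83, ICAM1 and NFKBIA, all of the NF-kB pathway, differed by 3.42, 3.00, 2.54 and 1.65. Genes lower in JEKO1 were led by RAG1 at -5.39 and TMCC2 at -4.18. FBP1 and C10orf10 had differences of -3.72 and -3.47, and CPLX1 and CDKL1 of -3.16 and -2.52. The drug targets differed least, BTK by 0.44 and XPO1 by 0.20. Whether the lines respond in opposite ways or the JEKO1 labels are exchanged cannot be told apart from these values.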

How the results depend on the processing

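No gene picked by the naming rule changed direction under any alternative run, apart from the exchange of the JEKO1 labels, which turns every JEKO1 difference by construction. Leaving out 1 library at a time gave 2211 to 2387 genes that rose and 1927 to 2209 that fell. EdgeR called 2565 and 2358, DESeq2 2191 and 1885. At least 2-fold changes numbered 201 higher and 90 lower with a minimum mean of 50, where fewer genes were tested, and 360 lower with no minimum. The rise of XPO1 was not called without the variance trend (limma adjusted p = 0.146), nor was its difference between lines (limma adjusted p = 0.0547), and the cause was not tested. Exchanging the JEKO1 labels gave 1042 genes higher and 1379 lower for the difference between lines. Rescaling to equal upper quartiles gave 2450 rises and 2461 falls, and the median of all genes moved by under 0.1 on the log2 scale under every scaling. The replicate letters gave no uniform pairing: deviations of same-letter libraries correlated at 0.02, -0.04 and 0.12. DMSO A correlated best with IB B and DMSO B with IB A, but DMSO C with IB C. The fit with the replicate block called 2819 and 2688, against 2538 and 2341 in the main fit. Depth limits the scarce genes: of those with a mean of 10 to 100, 28.2% were called.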
